A study of Mus musculus with 60 samples.

Results

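Myelin and oligodendrocyte transcripts were examined in 60 RNA-seq libraries of adult mouse brain through 9 genes chosen by name, Mbp, Mobp, Mog, Mag, Cnp, Mal, Cldn11, Opalin and Ermn. They are 9 of 47597 entries in each expression table and 9 of the 16092 entries with a mean level of at least 0.5 FPKM. All 9 passed that limit. FPKM is the number of fragments scaled by transcript length and by the number of mapped fragments, so levels of different genes can be set side by side. Unless stated otherwise, values were rescaled so that the median ratio of a gene to its geometric mean over libraries was the same in every library.

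The study compared mice of the c57BL-6N strain, aged 3 months, in 2 lines that carry changes in Htt, the gene mutated in Huntington disease. The Δ12 line carries a deletion within exon 12 of Htt and supplied +/+, Δ12/+ and Δ12/Δ12 mice, whereas the KO line carries an allele that lost the splice donor of that exon and supplied +/+ and KO/+ mice. Each of the 5 genotypes was labelled with 3 males and 3 females, and each of the 30 labelled mice gave a library labelled cortex and a library labelled striatum, which makes 10 groups of 6. All groups share the strain and the age, the labels give no treatment, and the label +/+ stands for mice of either line without a changed Htt allele. Samples of a group are labelled as separate mice, and p-values measure only the spread between these libraries. Tissue pieces hold a mixture of cells, so that fewer oligodendrocytes and less RNA per oligodendrocyte cannot be told apart.

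Several labels went against the data, and this bears on every comparison below. Slc17a7, the vesicular glutamate transporter of cortical excitatory neurons, lay between 121 and 234 FPKM as deposited in 30 libraries and between 4.81 and 64.8 FPKM in the other 30. The first 30 libraries are called cortex-like here and the rest striatum-like. Drd2, a dopamine receptor of striatal output cells, did not exceed 18.5 FPKM in any cortex-like library and was 29.4 FPKM or more in each striatum-like one. Each class held 15 libraries labelled cortex and 15 labelled striatum. The cortex-like class consisted of all +/+ and Δ12/+ libraries of the Δ12 line and the male Δ12/Δ12 libraries, and the striatum-like class of the female Δ12/Δ12 libraries and all libraries of the KO line. Xist exceeded Ddx3y, the pattern of females, in 15 of 30 libraries labelled female and in 15 of 30 labelled male. The allele check also failed in part, since Htt in KO/+ libraries labelled striatum ranged from 12.7 to 19.7 rescaled FPKM against 16.8 to 20.7 in +/+, with 3 of 6 KO/+ libraries within the +/+ range or above it, and the libraries labelled cortex likewise had 3 of 6 there, at 13.9 to 20.0 against 16.6 to 20.2. In addition, the KO/+ female 3 library labelled striatum has a title that names the Δ12 line beside the genotype KO/+, and it was placed in the KO line by its genotype label. Group names are therefore used as labels throughout.

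Myelin is the multilayered sheath that oligodendrocytes wrap around axons in the central nervous system, where it speeds conduction and supports the axon. Its compact layers are held together by basic proteins on the cytoplasmic face, its outer and inner surfaces carry adhesion proteins of the immunoglobulin family, and its membrane is unusually rich in lipids. White matter runs in bundles through the striatum and lies beneath the cortex, and most oligodendrocytes reside along such tracts. Of the 9 genes, Mbp encodes myelin basic protein and Mobp a smaller basic protein of compact myelin. Cldn11 encodes the claudin that forms tight junctions between myelin layers, and Mal a proteolipid of membrane traffic to myelin. Mag encodes the adhesion protein facing the axon, and Mog a glycoprotein of the outermost lamella. Cnp encodes a cyclic nucleotide phosphodiesterase of non-compact myelin, Opalin a sialylated membrane glycoprotein of oligodendrocytes, and Ermn a cytoskeletal protein that appears late in their maturation.

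In the GRCm38 coordinates of the files, the genes lie on 8 chromosomes. Mobp spans chr9:120149742-120181484 on the plus strand, Cldn11 chr3:31149920-31164324 on the plus strand, Cnp chr11:100574904-100591729 on the plus strand, Mag chr7:30899176-30914873 on the minus strand and Mal chr2:127633226-127656695 on the minus strand. Mog spans chr17:37010743-37023398, Opalin chr19:41062474-41077113 and Ermn chr2:58045113-58052864, all on the minus strand. Mobp overlaps the processed transcript Gm38642 on the same strand. On the other strand, Mog overlaps Gm22388 and Mbp the pseudogene Rpl21-ps8. Cnp overlaps Dnajc7 on the other strand, and Ermn overlaps Galnt5 on the other strand. Whether strand was used in quantification is not given in the sources used here, so that Cnp fragments cannot be told apart from those of Dnajc7. Dnajc7 itself had a median of 10.0 rescaled FPKM in cortex-like and 36.0 in striatum-like libraries, whereas Galnt5 had a median of 0 in both.

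The promoters of 4 genes are shown because their genes mark the ends of the comparison described next, Cldn11 and Mobp with the widest differences between the 2 classes of libraries in one direction and Mog and Opalin with the opposite direction. Each runs from 250 bases before to 50 bases after the RefSeq start in GRCm38.p6, at chr3:31149670-31149969 (plus strand) for Cldn11, chr9:120149492-120149791 (plus) for Mobp, chr17:37023349-37023648 (minus) for Mog and chr19:41077064-41077363 (minus) for Opalin. Capitals mark the letters ACAAAG or ACAATG, the core that SOX factors such as Sox10 recognise, and CTGGCAC or CTGGTAC, a core bound by the myelin regulatory factor Myrf, each on either strand.
Cldn11: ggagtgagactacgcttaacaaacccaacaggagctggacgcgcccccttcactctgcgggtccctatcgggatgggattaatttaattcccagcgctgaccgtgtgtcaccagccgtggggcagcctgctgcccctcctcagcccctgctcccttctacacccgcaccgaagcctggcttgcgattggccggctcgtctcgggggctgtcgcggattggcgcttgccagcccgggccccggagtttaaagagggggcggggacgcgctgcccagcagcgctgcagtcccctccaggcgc
Mobp: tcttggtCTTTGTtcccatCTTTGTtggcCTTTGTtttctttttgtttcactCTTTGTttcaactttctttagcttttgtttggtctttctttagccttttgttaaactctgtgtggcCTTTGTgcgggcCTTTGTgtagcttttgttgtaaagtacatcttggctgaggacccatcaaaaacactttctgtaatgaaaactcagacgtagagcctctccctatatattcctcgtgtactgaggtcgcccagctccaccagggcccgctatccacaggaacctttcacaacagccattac
Mog: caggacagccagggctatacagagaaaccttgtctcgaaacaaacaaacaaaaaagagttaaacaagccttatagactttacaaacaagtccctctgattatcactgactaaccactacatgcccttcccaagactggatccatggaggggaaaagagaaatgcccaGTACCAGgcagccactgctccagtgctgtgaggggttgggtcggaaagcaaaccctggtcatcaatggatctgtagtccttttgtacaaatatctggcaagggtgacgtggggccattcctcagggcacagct
Opalin: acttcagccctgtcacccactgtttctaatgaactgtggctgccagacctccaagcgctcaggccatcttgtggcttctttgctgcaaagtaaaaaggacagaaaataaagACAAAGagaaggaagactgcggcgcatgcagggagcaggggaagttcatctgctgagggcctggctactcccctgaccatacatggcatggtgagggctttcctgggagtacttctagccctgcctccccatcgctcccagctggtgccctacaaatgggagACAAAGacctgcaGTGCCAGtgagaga
The Mobp promoter held 6 copies of ACAAAG, all on the strand opposite to the gene, and no Myrf core. Opalin held 2 copies of ACAAAG and 1 of CTGGCAC, Mog held 1 copy of CTGGTAC, and Cldn11 held neither core in this window. RefSeq promoters were used for 8 of the 9 genes, with Mbp left out of the count, 10 promoters in all since Mag has several. A SOX core occurred in 5 of the 8 genes and 6 of these 10 promoters against 28.6% of all 32851 promoters of this length, and a Myrf core in 4 of the 8 genes and 5 of 10 promoters against 7.10%. A pair of Mag promoters overlap and hold the same copy of each core, which counts in both. No marked copies overlapped each other. A match of letters describes the sequence and is no evidence of binding, and both directions of the class difference are found among promoters with a Myrf core.

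The level of these genes followed the Slc17a7 class of a library, and it did so in 2 opposite ways. Mobp, Cldn11, Mag, Mbp, Ermn and Cnp were higher in every striatum-like than in every cortex-like library, Mal was higher with overlapping ranges, and Mog and Opalin were lower with overlapping ranges. The classes were drawn from the data, and apart from the female Δ12/Δ12 libraries the class follows the labelled line. These values are therefore a description with no test. Non-overlapping ranges in the higher direction were found for 6 of 9 genes against 19.4% of the 16092 entries, and in the lower direction for 0 of 9 against 16.9%.

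Mobp ranged from 41.7 to 133 rescaled FPKM in the cortex-like libraries, with a median of 75.2, and from 195 to 347 in the striatum-like libraries, with a median of 272. The difference of medians on the log2(rescaled FPKM + 0.5) scale was 1.85. Cldn11 had a median of 20.6 (14.4 to 36.6) in the cortex-like and 75.0 (59.4 to 94.6) in the striatum-like libraries, a difference of 1.84. Both genes thus left a gap between the classes. Mag had a median of 33.0 (23.5 to 62.0) in cortex-like and 98.9 (79.1 to 138) in striatum-like libraries, a difference of 1.57. Mbp, the most abundant of the 9 transcripts in both classes, had medians of 383 (210 to 540) and 980 (736 to 1280), a difference of 1.35 on the log2 scale. One Mbp value, in the +/+ female 1 library of the KO line labelled striatum, carried a failed status in the file and was treated as missing. Ermn had medians of 7.49 (5.00 to 9.14) and 16.7 (12.1 to 24.2), a difference of 1.10. Cnp had medians of 62.8 (46.8 to 81.1) and 119 (94.2 to 156), a difference of 0.92. Its lowest striatum-like library lay above its highest cortex-like library, as for the other 5 genes.

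Mal was less separated. Its median was 43.6 rescaled FPKM in cortex-like libraries (29.5 to 62.3) and 57.3 in striatum-like libraries (43.7 to 75.9), and its log2 difference of 0.39 was -0.00 when the deposited FPKM were used without rescaling. Mog had medians of 42.3 (25.1 to 63.2) and 31.5 (22.7 to 45.5), with a log2 difference of -0.42 that became 0.05 under quantile normalization. Opalin, the least abundant of the 9 in striatum-like libraries, had medians of 9.93 (6.56 to 16.2) and 5.70 (3.42 to 9.53), a log2 difference of -0.75. The direction for Mal and Mog therefore depended on the scaling, whereas that of the other 7 genes was the same under the 3 scalings tried. The median difference over the 9 genes was 1.10 and that over all 16092 entries was 0.03, with the middle 50% of entries between -0.72 and 0.82.

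**Figure D1:**
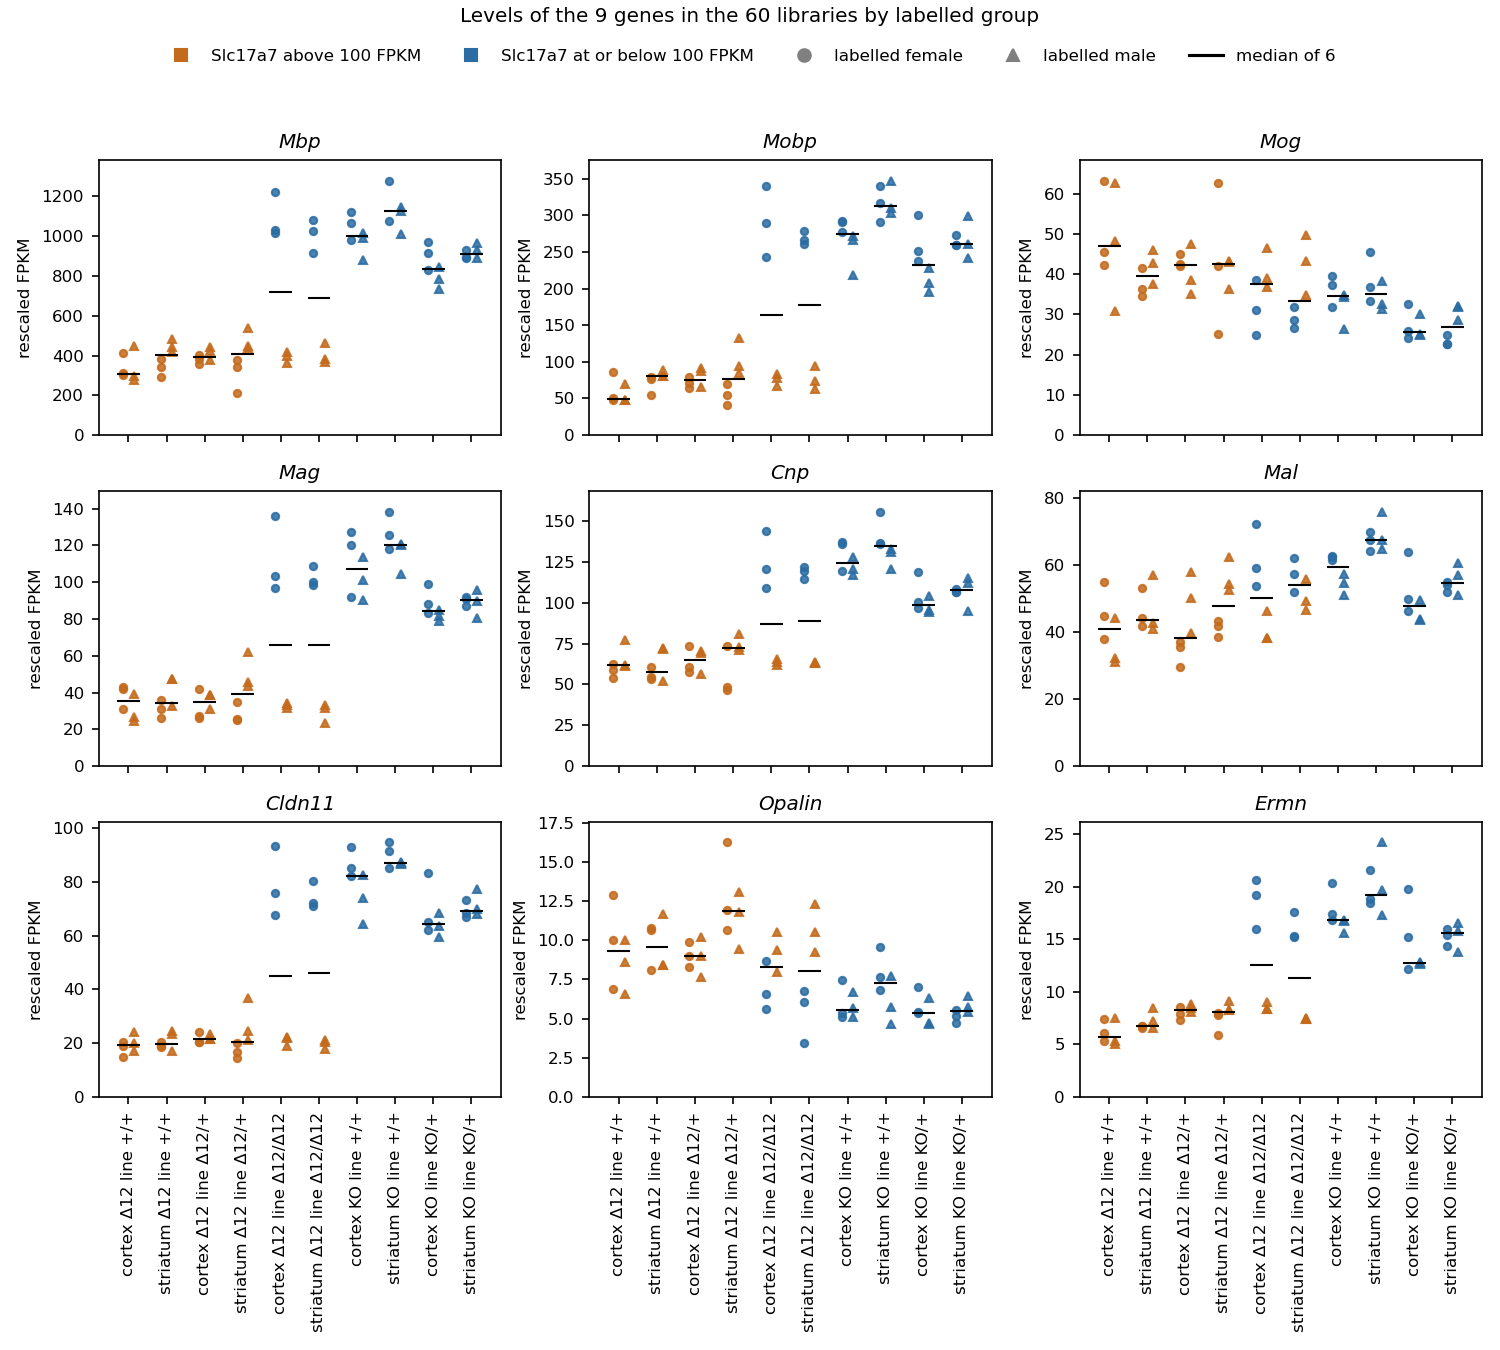
Rescaled FPKM of the 9 genes in each of the 10 labelled groups, on linear axes, with 1 point per library and colour for the Slc17a7 class. In the Δ12/Δ12 groups the points split by class, for example for Cldn11 between 17.9 and 22.1 in the cortex-like and between 67.6 and 93.4 in the striatum-like libraries, and KO line libraries all lie in the striatum-like range.

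The order of abundance differed between the classes. In striatum-like libraries the medians ran Mbp, Mobp, Cnp, Mag, Cldn11, Mal, Mog, Ermn and Opalin from high to low, and ranges of neighbours did not overlap between Mbp and Mobp, between Mobp and Cnp, or between Ermn and Opalin. In cortex-like libraries Mal and Mog stood above Mag and Cldn11, and Opalin stood above Ermn, with overlapping ranges for these neighbours. Only Mbp was set apart from its neighbour there.

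Other properties of the libraries moved with the class. Transcript length was one, since over the 16002 entries with a known length the class difference correlated with log2 length at r = 0.38 and with GC content at r = 0.02. This correlation is across genes, which are not independent replicates. After a linear fit on both, which took up 14.9% of the variance, the log2 differences were 2.04 for Cldn11, 1.68 for Mobp, 1.52 for Mag, 1.07 for Ermn, 0.98 for Mbp, 0.80 for Cnp, 0.38 for Mal, -0.15 for Mog and -0.73 for Opalin. Mog has a longest transcript of 1704 nucleotides against a median of 3054 for all entries. The scaling factor applied to a library had a median of 1.15 in the cortex-like and 0.891 in the striatum-like class, and transcripts of at most 300 nucleotides took a median of 97.3% and 90.3% of the summed FPKM. Depth, estimated from the width of the deposited confidence intervals on the assumption that they span 2 SD of counting error on each side, was 12.7 to 27.5 M fragments, with medians of 14.4 M in the cortex-like and 18.2 M in the striatum-like class. The part of these measures in the class differences was not tested.

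The wider oligodendrocyte programme was mixed in the same way. Among 27 other genes of mature oligodendrocytes, 21 had a positive and 6 a negative class difference, with a median of 0.86. Separate ranges were found upward for 11 and downward for 1, against 19.4% and 16.9% of all 16092 entries. Qdpr, an enzyme that recycles tetrahydrobiopterin, was the gene separate downward, with medians of 189 rescaled FPKM in cortex-like and 93.5 in striatum-like libraries, and Plekhb1 had nearly equal medians of 158 and 169. Enpp2, which makes lysophosphatidic acid and is also strongly expressed by choroid plexus, had medians of 38.0 and 227 with the widest range in striatum-like libraries, 51.0 to 460. The choroid plexus marker Ttr, a transthyretin, ranged from 1.34 to 364 in cortex-like and from 29.6 to 2025 in striatum-like libraries, and all 4 choroid plexus genes had higher medians in the latter. Of the 6 enzymes of myelin lipids, Fa2h, which hydroxylates the fatty acids of galactolipids, had medians of 1.93 and 15.2, Ugt8a, which makes galactocerebroside, 19.4 and 20.2, Cers2, a ceramide synthase, 8.77 and 16.9, and Aspa, which releases acetate from N-acetylaspartate, 20.1 and 8.37. Fa2h and Aspa had separate ranges in opposite directions.

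Transcription factors of the lineage had class differences of up to 3.13, for Myrf. Of 11 factors, 10 had a positive class difference, and the median difference was 1.17. Separate ranges upward were found for 6 of them, against 19.4% of all 16092 entries. Myrf, the factor that switches on myelin genes, had medians of 1.31 and 15.4 rescaled FPKM, Olig1, a basic helix-loop-helix factor of the lineage, 7.57 and 38.5, and Sox8, a relative of Sox10, 8.94 and 20.7. Zfp536 had medians of 6.61 and 10.1 with overlapping ranges. Genes of precursors and differentiating cells gave 8 positive and 2 negative differences among 10, with 3 separate ranges upward and a median of 0.83. Bcas1, which marks cells beginning to myelinate, had medians of 18.2 and 50.7, whereas Pdgfra, the growth factor receptor of precursors, had 5.16 and 7.21, and Tnr, a matrix protein, 20.3 and 18.8.

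Genes of peripheral myelin served as a check of the cell type. Pmp2, Prx and Ncmap, which mark Schwann cells, had mean levels below 0.5 rescaled FPKM and did not pass the limit, while Pmp22 and Egr2, which brain cells also express, did. Genes of other cells differed in their own ways. The median class difference was 0.28 over 8 astrocyte genes, 0.01 over 6 microglia genes and 0.49 over 7 neuronal genes, against 3.35 over 6 genes of striatal projection neurons and -1.59 over 6 genes of cortical excitatory neurons, 1 of which, Slc17a7, defined the classes. The summed level of the 6 striatal genes was 81.5 to 488 rescaled FPKM in cortex-like and 931 to 1819 in striatum-like libraries, and that of the 4 choroid plexus genes 1.84 to 377 and 34.2 to 2090. The part of these cells in the class differences of the 9 genes was not tested.

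**Figure D2:**
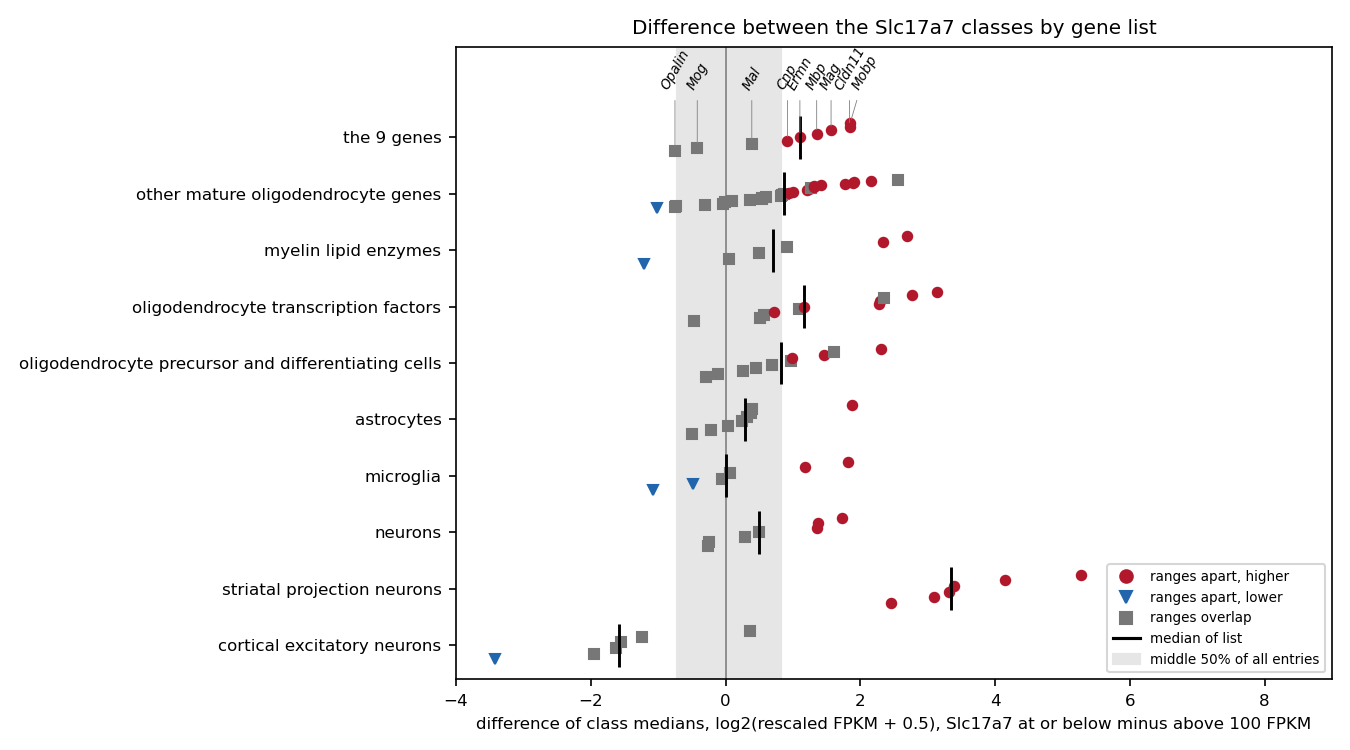
Difference between the median of the 30 striatum-like and that of the 30 cortex-like libraries for each gene, on the log2(rescaled FPKM + 0.5) scale, by gene list. Circles and triangles mark genes whose class ranges were separate, bars mark list medians and the grey band spans the middle 50% of entries. The 9 genes run from -0.75 for Opalin to 1.85 for Mobp.

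Covariation of the 9 genes over libraries was close in one class and loose in the other. Pearson's r of the log2 levels was computed for the 36 pairs of genes over the libraries of a class, which share sequencing, scaling and, in pairs, a labelled mouse, so that these values are descriptions. Over the 30 striatum-like libraries the mean r was 0.77, from 0.49 to 0.95, and 25 pairs were above 0.7. Over the 30 cortex-like libraries the mean r was 0.26, from -0.25 to 0.91, with 3 pairs above 0.7 and 11 below 0. Without the 2 libraries farthest from the class median the means were 0.73 and 0.18. With the FPKM as deposited they were 0.86 and 0.44, and with quantile normalization 0.66 and 0.36, so that the striatum-like class had the higher mean under each scaling. The groups that make up the striatum-like class also differ in line and genotype.

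The pairs that held together differed between the classes. In striatum-like libraries Mag and Cnp correlated at 0.95 and Mobp and Mal at 0.94, whereas Opalin had the lowest mean r with the other 8 genes, 0.56. In cortex-like libraries the basic proteins Mbp and Mobp correlated at 0.91, Cnp and Cldn11 at 0.77 and Mbp and Cldn11 at 0.71. Mog and Opalin stood aside in the cortex-like class, with mean r of 0.01 and -0.04 with the other genes. Both are also the genes whose level was lower in the striatum-like class. Counting precision differed between genes, and the half-width of the deposited interval had a median of 3.25% of the value for Mbp, 10.2% for Mog and 13.1% for Opalin. The part of this precision in the correlations was not tested.

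**Figure D3:**
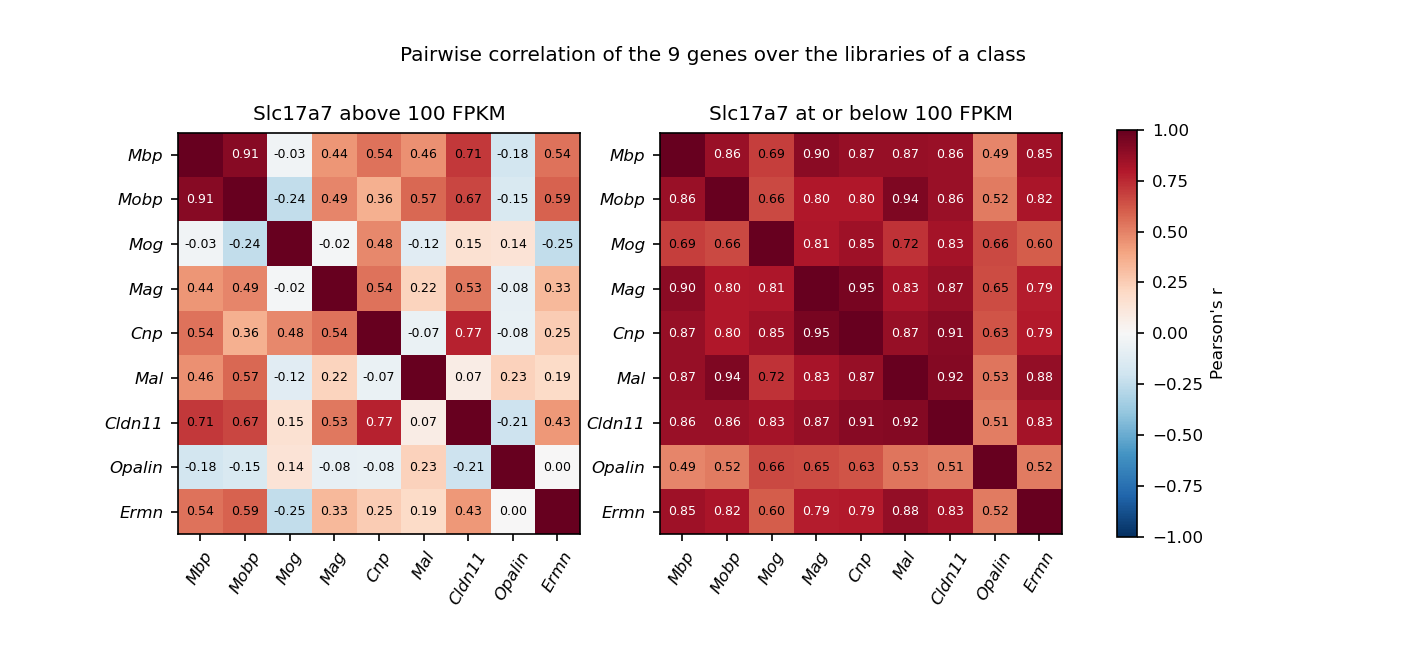
Pearson's r between the log2 levels of each pair of the 9 genes over the 30 cortex-like libraries (left) and the 30 striatum-like libraries (right). Values lie between 0.49 and 0.95 in the striatum-like panel, and Mog and Opalin have values near or below 0 with most genes in the cortex-like panel.

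**Figure D4:**
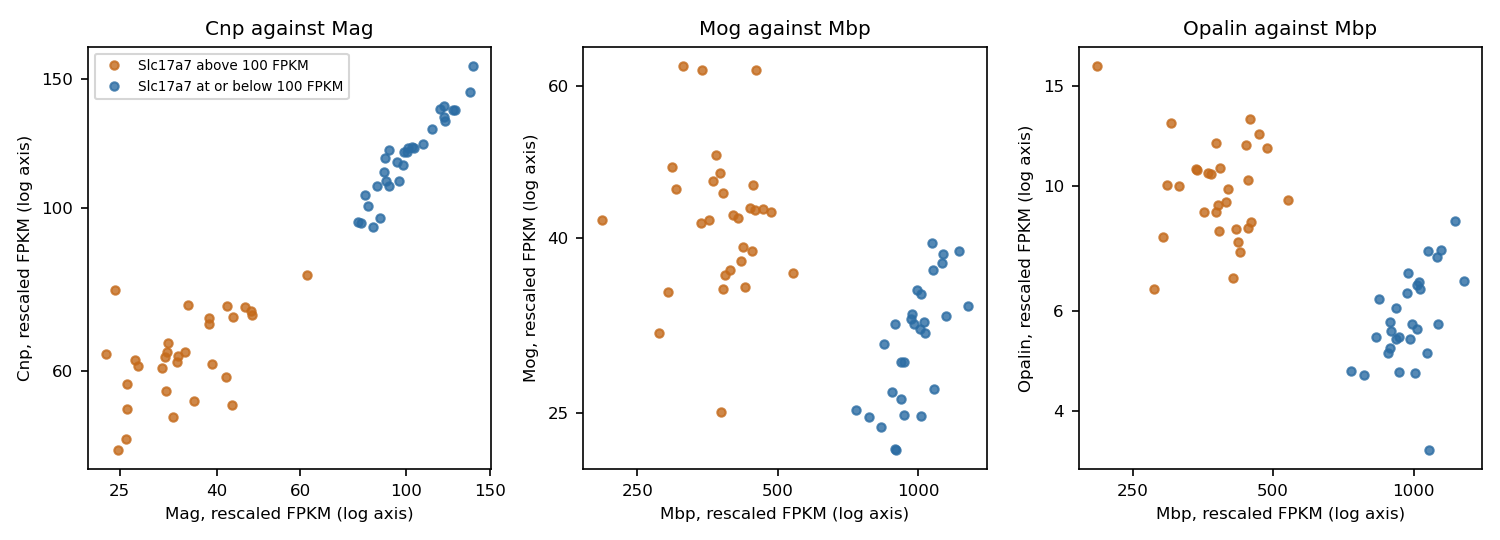
Levels of 3 gene pairs in single libraries, as rescaled FPKM on log axes, with colour for the Slc17a7 class. Cnp and Mag form a narrow band in the striatum-like libraries (r = 0.95), whereas Mog and Opalin are lower against a higher Mbp in that class.

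The mean correlation within other lists lay on both sides of that of the 9 genes. Over cortex-like and striatum-like libraries respectively, the mean r within a list was 0.17 and 0.63 for the other mature oligodendrocyte genes, 0.16 and 0.62 for the lipid enzymes, 0.20 and 0.33 for the transcription factors and 0.04 and 0.12 for the precursor genes. It was 0.15 and 0.17 for astrocyte genes, 0.03 and 0.42 for microglia genes and 0.31 and 0.07 for neuronal genes. The genes of striatal projection neurons had higher means, 0.79 and 0.85, and so did those of choroid plexus, 0.65 and 0.97. The mean of the 9 genes correlated with Slc17a7 at -0.55 in cortex-like and -0.28 in striatum-like libraries, and with Drd2 at 0.47 and -0.47. Its correlation with the scaling factor was 0.35 and 0.24, and with Htt -0.08 and 0.33.

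Genes most like the 9 were sought among all entries at or above the 0.5 limit by the lower of the 2 class values of their mean r with the members. Among the nearest were Fa2h, Bcas1, Lzts2, Gjc3, Tmem88b, Slc44a1, Rasgrp3, Anln and Apod, with lower values between 0.43 for Fa2h and 0.36 for Apod over 30 libraries in each class. In striatum-like libraries their values were 0.76 for Fa2h, 0.82 for Bcas1 and 0.51 for Rasgrp3. Of these 9 genes 6 were on one of the oligodendrocyte lists, and Lzts2, Slc44a1 and Rasgrp3 were not.

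The KO/+ comparison set libraries labelled KO/+ against those labelled +/+ in the KO line, and in the libraries labelled striatum it gave lower levels of most of these genes. Htt in 3 of these 6 KO/+ libraries lay within the +/+ range or above it. The labels therefore do not fully separate loss of an Htt allele. All libraries of this line were striatum-like, so that the class did not differ between the groups. The summed level of 6 genes of striatal projection neurons did differ between them without overlap, as given below. Of the 9 genes 7 fell past an adjusted p of 0.05 in limma, against 6.93% of all 15823 entries called in either direction and 3.41% called lower. Ranges did not overlap for 6 of 9 genes, all lower in KO/+, against 2.49% of entries. For these 6 genes the 3 KO/+ libraries with Htt within or above the +/+ range also lay below the +/+ range. The part of the Htt level in the fall was not tested. The median log2 fold change of the 9 genes was -0.33 and that of all entries 0.02.

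Mag was 80.3 to 95.8 rescaled FPKM in the 6 KO/+ libraries, with a median of 90.4, and 104 to 138 in the 6 +/+ libraries, with a median of 120. Its log2 fold change was -0.43 ± 0.07 (SE), with an adjusted p of 0.00582 in limma. Cldn11 was 66.8 to 77.2 (median 69.1) in KO/+ and 85.1 to 94.6 (median 87.2) in +/+, a log2 fold change of -0.33 ± 0.05 with an adjusted p of 0.00715. No KO/+ library of either gene reached the +/+ range.
Mal, Cnp, Ermn and Mbp were also separate. Mal was 51.1 to 60.7 (median 54.5) against 64.1 to 75.9 (median 67.5), with a log2 fold change of -0.31 ± 0.06 (adjusted p = 0.0125), and Cnp was 95.3 to 116 (median 108) against 121 to 156 (median 135), with -0.33 ± 0.07 (adjusted p = 0.0149). Ermn was 13.8 to 16.5 (median 15.6) against 17.3 to 24.2 (median 19.3), with -0.37 ± 0.08 (adjusted p = 0.0264). Mbp was 889 to 965 (median 912) in 6 KO/+ against 1009 to 1280 (median 1126) in 5 +/+ libraries, with -0.30 ± 0.07 (adjusted p = 0.0265). The fold changes of these 6 genes lay between those of Mbp and Mag, and they span transcripts for compact myelin, its junctions, the adhesion to the axon and the cytoskeleton.
Mobp overlapped slightly, at 241 to 299 (median 260) against 291 to 347 (median 313), and had a log2 fold change of -0.26 ± 0.07 with an adjusted p of 0.0401. Mog, at 22.7 to 32.2 (median 26.8) against 31.3 to 45.5 (median 35.0), had a log2 fold change of -0.42 ± 0.12 and missed the threshold at an adjusted p of 0.0573. Opalin was 4.70 to 6.47 (median 5.48) against 4.67 to 9.53 (median 7.24), with -0.30 ± 0.14 and an adjusted p of 0.259.

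The calls for Mag, Cldn11, Mal and Cnp held in each of the 12 fits that left out 1 library. Ermn was called in 8 of the 12, and lost its call without +/+ female 3, KO/+ male 3, KO/+ female 2 or KO/+ female 3. Mbp was called in 6, and lost its call without +/+ male 1, +/+ female 3, KO/+ male 3 or any KO/+ female. Mobp was called in 3, those without +/+ male 3, +/+ female 2 or KO/+ male 3. The count of members called was 4 without the +/+ female 3, the KO/+ female 2 or the KO/+ female 3 library. The last is the library whose title names the other line, and without it Mag, Cldn11, Mal and Cnp were called. With the FPKM as deposited 2 of 9 genes were called, and with all 30 libraries labelled striatum in 1 fit none was. Under quantile normalization Mbp was 0.26 higher in KO/+ on the log2 scale.

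Related oligodendrocyte genes moved alongside, and so did genes of other cells. Over all 15823 entries, 540 were called lower and 557 higher in KO/+ libraries labelled striatum. Of 27 other mature oligodendrocyte genes 15 were lower in KO/+ libraries labelled striatum and 0 higher, among them Qdpr (log2 fold change -0.38 ± 0.08) and Plekhb1 (-0.26 ± 0.06). Enpp2 was at -0.09 ± 0.30 and was not called. Ugt8a and Cers2 were lower among the 6 lipid enzymes, at -0.38 ± 0.10 and -0.26 ± 0.07. Among 11 transcription factors 4 were lower, including Olig1 (-0.31 ± 0.07) and Myrf (-0.27 ± 0.06), while Sox8 was at 0.04 ± 0.06. Tcf7l2, a Wnt effector of the lineage that was singled out after its value was seen, had the largest fall of the list at -1.30 ± 0.13, and it is also expressed by neurons of the thalamus. Bcas1 and Lhfpl3 were lower among the 10 precursor genes. Of 6 genes of striatal projection neurons 4 were higher in KO/+, including Penk, which encodes enkephalin, at 0.54 ± 0.08 and Ppp1r1b, a regulator of protein phosphatase, at 0.52 ± 0.08. Of 6 cortical neuron genes 2 were higher, of 8 astrocyte genes 1 was lower, of 7 neuronal genes 1 was lower and 1 higher, and of 3 ependymal genes 1 was higher. Microglia genes had log2 fold changes between 0.09 and 0.14 and choroid plexus genes between -0.09 and 0.10, with no call among either. The summed level of the 6 striatal genes did not overlap between the groups, at 1301 to 1723 rescaled FPKM in KO/+ and 931 to 1247 in +/+, while that of the 8 astrocyte genes was 774 to 859 against 728 to 823 and that of the 4 choroid plexus genes 329 to 1378 against 350 to 1663. None of these markers was at 0. The part of these markers of other cells in the fall of the myelin genes was not tested.

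In the libraries labelled cortex, which for this line were also striatum-like, the 9 genes had log2 fold changes between -0.08 and -0.32 with a median of -0.26, and 0 of 9 were called in limma against 0.0884% of 15835 entries. At an unadjusted p under 0.05 there were 8 of 9 and 2205 entries. No gene had separate ranges with KO/+ lower, against 0.991% of entries. Cnp came nearest, at 94.2 to 119 (median 98.7) in KO/+ and 117 to 138 (median 124) in +/+, with a log2 fold change of -0.31 ± 0.07 and an adjusted p of 0.108. Mag was 79.1 to 99.2 (median 84.3) against 90.2 to 127 (median 107), with -0.31 ± 0.09, and Mbp was 736 to 971 (median 838) against 880 to 1122 (median 1003), with -0.25 ± 0.07. The summed level of the striatal genes was 1093 to 1819 against 976 to 1423, that of the cortical neuron genes 16.1 to 89.6 against 14.7 to 39.8 and that of the choroid plexus genes 185 to 2090 against 45.1 to 809, and the part of these cells in the values was not tested. The 2 labelled tissues come from the same labelled mice, and the difference between their KO/+ effects was not tested.

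**Figure D5:**
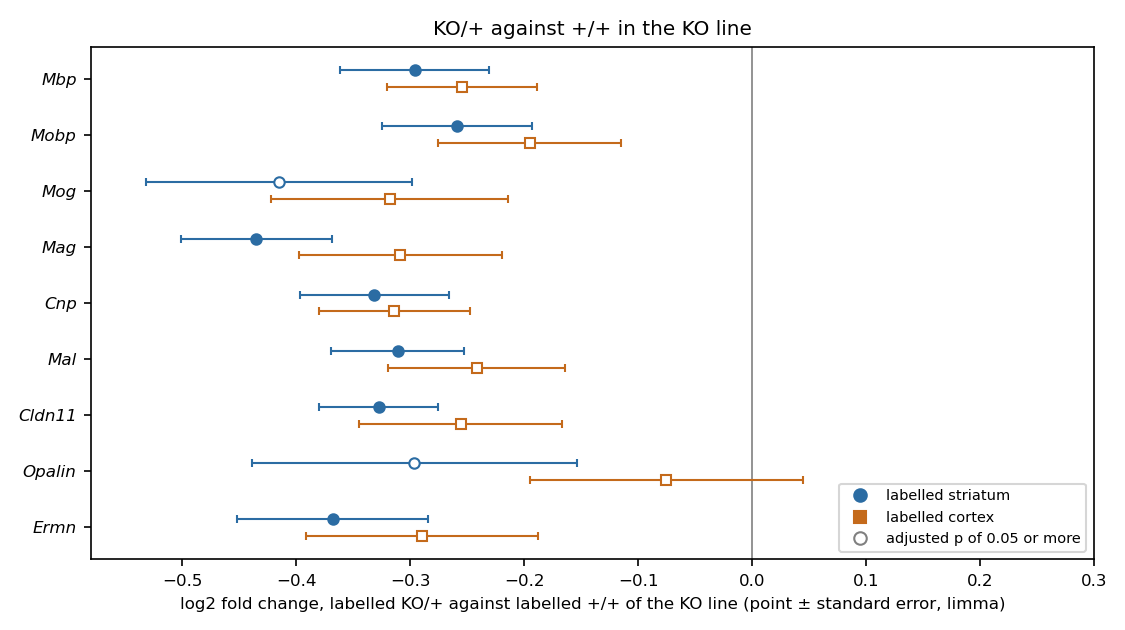
Log2 fold change of KO/+ against +/+ for the 9 genes in libraries labelled striatum and cortex, with SE bars from limma. All 18 values are below 0, from -0.08 for Opalin labelled cortex to -0.43 for Mag labelled striatum, and filled symbols mark the 7 genes called.

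The Δ12/Δ12 comparison asked what 2 copies of the shortened exon change. It could not be separated from the class, because the female Δ12/Δ12 libraries were striatum-like and all +/+ libraries of this line were cortex-like. In libraries labelled striatum Cldn11 was 17.9 to 21.2 rescaled FPKM in the 3 male and 71.0 to 80.2 in the 3 female Δ12/Δ12 libraries, against 17.2 to 24.7 in the 6 +/+ libraries. Mbp was likewise 368 to 466 in the males and 918 to 1081 in the females, against 291 to 485 in +/+. The male libraries therefore lay largely within the +/+ range and the female libraries far above it. Opalin had the opposite order, at 9.25 to 12.3 in males, 3.42 to 6.75 in females and 8.13 to 11.6 in +/+.
In the fit with labelled sex as a covariate, 1 of 9 genes was called in the libraries labelled striatum, against 28.3% of 15481 entries, and 1 of 9 in those labelled cortex, against 0.942% of 15710. Both calls were Ermn, at a log2 fold change of 0.61 ± 0.20 (adjusted p = 0.0466) and 1.01 ± 0.21 (adjusted p = 0.0499) in limma. Labelled sex coincides with the class in the Δ12/Δ12 libraries. Without labelled sex as a covariate 0 of 9 genes were called for either label. Ermn was 7.37 to 17.6 (median 11.4) in Δ12/Δ12 and 6.54 to 8.45 (median 6.73) in +/+ libraries labelled striatum. Among the cortex-like libraries alone its log2 fold change was 0.01 labelled striatum and 0.51 labelled cortex, and no member was called. The call for Ermn was lost without +/+ male 3, any +/+ female or any Δ12/Δ12 female labelled striatum, and it held in 2 of 12 fits labelled cortex, those without +/+ male 2 or +/+ male 3. Mobp had fold changes of 0.91 ± 0.34 and 1.37 ± 0.32, neither of which passed.

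In the libraries labelled Δ12/+, which were all cortex-like as were those labelled +/+, no member was called in limma. This was 0 of 9 against 0.00663% of 15089 entries in the libraries labelled striatum and 0 of 9 against 0.0662% of 15108 in those labelled cortex. At an unadjusted p under 0.05 there were 1 and 2 members and 487 and 1265 entries. In libraries labelled cortex Ermn was 7.31 to 8.84 (median 8.29) in Δ12/+ and 5.00 to 7.49 (median 5.71) in +/+, a log2 fold change of 0.41 ± 0.12 with an adjusted p of 0.395. Mobp was 63.7 to 91.7 (median 75.2) against 48.1 to 85.5 (median 49.5), with 0.41 ± 0.18. In libraries labelled striatum the members' values ranged from -0.04 for Mbp to 0.31 for Opalin.

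The +/+ libraries of both lines are labelled with the same Htt genotype, and their comparison gave the widest labelled differences. Libraries of the KO line were striatum-like and those of the Δ12 line cortex-like, so that line and class cannot be told apart. In libraries labelled striatum 8 of 9 members were called against 79.4% of 15725 entries, and 7 of 9 were higher in the KO line against 42.0%. In libraries labelled cortex 9 of 9 were called against 68.1% of 15814 entries, and 7 of 9 were higher against 36.5%. Cldn11 was 85.1 to 94.6 in the KO line and 17.2 to 24.7 in the Δ12 line for the label striatum, with a log2 fold change of 2.10 ± 0.09. Without +/+ male 1, +/+ male 3 or +/+ female 3 of the Δ12 line, or +/+ male 1 or +/+ female 3 of the KO line, the call for Mog labelled cortex was lost. Opalin was lower at -0.46 ± 0.15 and -0.57 ± 0.17 for the labels striatum and cortex. Mog was lower at -0.48 ± 0.17 for the label cortex and was not called at -0.14 ± 0.11 for the label striatum, and under quantile normalization its values were 0.12 and 0.42.

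The labelled tissue and the labelled sex were each compared over all 60 libraries. Between libraries labelled striatum and cortex 0 of 9 members and 0% of 16092 entries were called in limma, with 1 member and 397 entries at an unadjusted p under 0.05. Between labelled females and males 2 of 9 were called against 29.4% of entries, Cldn11 at 0.31 ± 0.12 (adjusted p = 0.0419) and Ermn at 0.21 ± 0.07 (adjusted p = 0.0349) higher in females. With the Slc17a7 class as a covariate these values were -0.08 and -0.00, and without the Δ12/Δ12 libraries, the genotype in which labelled sex and class coincide, no entry was called. Without the +/+ libraries of the KO line 1 member was called, Ermn.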

How the data were processed

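RNA of mouse brain was prepared by the authors with rRNA depletion and a directional kit and sequenced on a NovaSeq6000. The submitters' processing notes name bcl2fastq 2.20, Trimmomatic 0.30, TopHat2 2.0.14, SAMtools 1.3, HTSeq 0.6.1p1 and the build GRCm38.p4. The strand setting and the tool that computed FPKM are not given in the sources used here. Deposited tables give FPKM per gene with an interval and a status, and no counts. Values with a status other than OK (223 in 23 of 47597 entries) were set to missing, 1 of them for Mbp.

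FPKM were divided by the median ratio to the geometric mean over 13235 entries above 0 in all 60 libraries (factors 0.761 to 1.38). Log2(rescaled FPKM + 0.5) was fitted with limma 3.58.1 in R 4.3.3 for the groups compared, with labelled sex as covariate (all genotypes, and tissue or sex, for the sex and tissue labels), over entries with a mean of at least 0.5 in those libraries, and p-values were adjusted by Benjamini-Hochberg with a threshold of 0.05. Fold changes on this scale understate those of low genes. The fitting procedure was tested on simulated data for KO/+ labelled striatum. Tables and figures used Python 3.11.15, pandas 2.3.3 and Matplotlib 3.10.9. Levels by Slc17a7 class, correlations and promoters carry no test. Same-numbered libraries had mean correlations between -0.09 and 0.01. Since tissue and sex labels went against the data, this check cannot show whether libraries share a mouse.

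The 9 genes, the marker lists and the comparisons were chosen with earlier results of these data known. Named genes are the 9 members, at most 4 per list by mean FPKM and the 10 entries most like the members. Others are named as members of short counts or as stated, and some named by this rule are not reported here. Alternatives covered scaling, pseudocount, filter, covariates, replicate block, pooled fits and leaving out 1 library. Any-status values, fits within a class and the length and GC fit were added after the data were seen. FPKM carry no fragment counts, so depth is an estimate and intervals cover counting error only.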

Additional observations from a re-analysis of the deposited data

Results flagged for a closer look

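In 5 of 90 sets of 6 libraries (9 genes in 10 labelled groups), 1 library lay far from the other 5, and chance alone flags about 1 in 20 sets. Mobp was 219 rescaled FPKM in the +/+ male 1 library of the KO line labelled cortex, with the others between 266 and 292. Mobp was also 55.0 in the +/+ female 3 library of the Δ12 line labelled striatum, with the others between 76.0 and 88.7. The KO/+ female 3 library labelled cortex stood above its group in 2 genes, with Mal at 63.7 against 43.7 to 49.9 and Cldn11 at 83.4 against 59.4 to 68.3. Ermn was 8.45 in the +/+ male 2 library of the Δ12 line labelled striatum, with the others between 6.54 and 7.21.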

How the results depend on the processing

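The count of the 9 genes called moved by over 1.5 times or to or from 0 in 5 labelled comparisons, and the cause was not tested. For Δ12/Δ12 labelled striatum, 1 in the report, it was 0 with FPKM as deposited, a pseudocount of 0.1, no filter, no sex covariate, the class as covariate or cortex-like libraries only, 5 with quantile normalization or all 30 libraries in 1 fit, and 0 to 5 leaving out 1 library. For Δ12/Δ12 labelled cortex, 1 in the report, it was 0 under those settings, quantile normalization and any-status values, 7 with all 30 libraries and 0 to 6 leaving out 1 library. For KO/+ labelled striatum, 7 in the report, it was 2 with FPKM as deposited, 4 without a filter, 0 with all 30 libraries in 1 fit and 4 to 7 leaving out 1 library. For KO/+ labelled cortex, 0 in the report, it was 1 with FPKM as deposited. For labelled sex, 2 in the report, it was 1 in the opposite direction with FPKM as deposited, 6 with quantile normalization, 0 without a filter, without covariates, with the class as covariate or within either class, and 0 to 7 leaving out 1 genotype. Between the lines it was 8 or 9 under all settings run for both labels, against 8 and 9 in the report.

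With the replicate block the counts were 0 and 0 for Δ12/Δ12 and 2 for KO/+ labelled striatum. Entries called in all then numbered 5, 9 and 301, against 4387, 148 and 1097. Signs turned for Mbp in KO/+ (0.26 labelled striatum, 0.40 labelled cortex) and Mog between lines (0.42 and 0.12) under quantile normalization, for Cldn11 (-0.078) and Ermn (-0.0039) between labelled sexes with the class as covariate or without Δ12/Δ12 (leaving out 1 genotype gave -0.078 to 0.47 and -0.0039 to 0.30), and for both (-0.25 and -0.097) in cortex-like libraries only. The class difference turned for Mog under quantile normalization (0.054) and for Mal with FPKM as deposited (-0.00153). Of 1800 fold changes of members in the alternatives 89 had the other sign, 1 of them called.

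Entries called for Δ12/Δ12 labelled striatum and cortex numbered 26 and 5 without a filter, 9 and 10 without the sex covariate and 8079 and 7982 with all 30 libraries in 1 fit. For KO/+ labelled striatum they numbered 307 with FPKM as deposited, 433 without a filter, 135 with all 30 libraries and 561 to 728 without +/+ male 1, +/+ female 1, +/+ female 3 or any KO/+ female, and for labelled sex 4 without a filter and 0 without covariates. With FPKM as deposited, 23 entries were higher and 284 lower for KO/+ labelled striatum, against 557 and 540. For Δ12/Δ12 labelled striatum they were 1294 and 3047 against 2283 and 2104, and for labelled sex 635 and 4450 against 2447 and 2292.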

Other observations

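Vessel and lining cells gave class differences of both signs. Among 4 endothelial genes the median difference between striatum-like and cortex-like libraries was 0.60. Of these, 1 gene was separate upward and 1 downward, against 19.4% and 16.9% of all 16092 entries. Cldn5, the claudin of the blood-brain barrier, had medians of 33.7 rescaled FPKM in cortex-like and 14.4 in striatum-like libraries, so that this claudin and the myelin claudin Cldn11 (20.6 and 75.0) differed in opposite directions. Flt1, a receptor of vascular growth factor, had medians of 1.59 and 9.65. Among 3 ependymal genes the median difference was 0.58 with overlapping ranges, and among 4 meningeal genes it was -0.54 with 1 separate downward. Ptgds, a prostaglandin synthase of meninges that oligodendrocytes also express, had medians of 464 and 181.

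In the KO line the 4 choroid plexus genes had a median log2 fold change of 1.20 for KO/+ against +/+ labelled cortex and -0.01 labelled striatum, with no call in either. The Ttr level of single libraries in the striatum-like class ran from 29.6 to 2025 rescaled FPKM.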
